A study of Mus musculus with 16 samples.

Results

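The genes described here encode most of the proteins of the mitochondrial ribosome. They were taken as all protein-coding genes whose mouse symbol begins with Mrpl or Mrps followed by a digit, with pseudogenes left out, and the rule used no measured value. It found 78 of the 29806 genes in the tables. By subunit, 51 belong to the large subunit (Mrps18a and Mrps30 are counted there, since their proteins sit in it), 26 to the small subunit, and Mrps36 was kept apart because its protein is known as a component of the oxoglutarate dehydrogenase complex. By the number in the symbol alone (Mrpl up to 36 and Mrps up to 21), 44 were counted as having a relative in the bacterial ribosome. The other 34, Mrps36 among them, were counted as specific to mitochondria. This rule was not checked gene by gene and may misplace single members.

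The mitochondrial ribosome translates the few messenger RNAs of the mitochondrial genome, all of which encode core subunits of the respiratory chain and ATP synthase. Its RNAs are made inside the organelle, whereas all of its proteins are encoded in the nucleus, translated in the cytosol and imported, so that assembly draws on both genomes. Haematopoietic stem cells are known for low rates of protein synthesis and for limited use of respiration while quiescent, and both rise as they divide and differentiate.

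RNA was sequenced from bone marrow of mice in 4 groups: HSC (haematopoietic stem cells) and Fcgr-negative MPP3 (myeloid-biased multipotent progenitors sorted without Fc gamma receptors), each from wild-type controls and from Jak2V617F mice. Jak2V617F is an activating change in a cytokine receptor kinase and a driver of myeloproliferative neoplasms. Each group held 4 libraries, numbered by batch from 1 to 4, and the design asks what the mutation changes in each cell type and how the cell types differ in each genotype. Not given in the sources used here are the age and sex of the mice, the promoter and zygosity of the mutant allele, and whether a library came from 1 animal or a pool. Each p therefore measures the spread between these libraries, which may be technical in part.

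The libraries held 33.4 to 41.5 (1e6) estimated counts each. Levels are CPM (counts per 1e6 on TMM-scaled library sizes) with mean ± SD over n = 4 libraries, and log2 fold changes are given ± SE. The 10 HSC markers (Procr, Slamf1, Hlf and others) summed to 3111 to 3177 CPM in control HSC against 1749 to 1955 CPM in mutant HSC, and to 1031 to 1445 CPM in control MPP3. The 10 MPP3 and myeloid progenitor markers summed to 352 to 424 CPM in control HSC, 188 to 353 CPM in mutant HSC and 2629 to 5714 CPM in control MPP3. In mutant MPP3 the same lists summed to 799 to 1110 CPM and 2609 to 4149 CPM. Between HSC and MPP3 of each genotype, these sums went the way of the cell-type labels. In mutant HSC against control HSC, single MPP3 and myeloid markers were mixed, with 1 called higher and 1 lower. The 6 megakaryocyte markers (Pf4, Itga2b, Vwf and others) summed to 737 to 1022 CPM in control HSC, 947 to 1433 CPM in mutant HSC, 158 to 225 CPM in control MPP3 and 192 to 294 CPM in mutant MPP3. The 8 erythroid markers summed to 99.0 to 279.5, 106 to 202, 414.5 to 823 and 58.2 to 287.5 CPM in the same order. Sums of neutrophil, B cell and T or NK cell markers lay between 1.38 and 277 CPM over all libraries. Levels are relative to the RNA of each library, so fewer cells that express a gene and less RNA per cell cannot be told apart.

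Promoters of 4 members are shown because 3 of them (Mrpl37, Mrpl18 and Mrpl21) had the largest rises in mutant HSC and the fourth, Mrps18c, was the only small-subunit gene called there. The sequences are those of RefSeq on GRCm38.p6, from 250 bases before to 50 bases after the RefSeq start, written 5′ to 3′ on the gene's strand. Gene positions and start distances given below are from another annotation, GENCODE M21, whose starts can differ. The Mrpl18 window lies wholly within the GENCODE span of that gene (12911349 to 12916345). Capitals mark matches to any of 5 short motifs looked for on both strands.
Mrpl37 promoter, chr4:107066817-107067116, minus strand: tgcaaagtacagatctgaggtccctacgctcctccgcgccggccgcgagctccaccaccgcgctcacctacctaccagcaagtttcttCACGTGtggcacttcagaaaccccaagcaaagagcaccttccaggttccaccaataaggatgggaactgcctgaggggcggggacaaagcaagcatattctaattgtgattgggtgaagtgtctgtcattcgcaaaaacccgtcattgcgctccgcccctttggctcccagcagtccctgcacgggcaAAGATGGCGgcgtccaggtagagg
Mrpl18 promoter, chr17:12916042-12916341, minus strand: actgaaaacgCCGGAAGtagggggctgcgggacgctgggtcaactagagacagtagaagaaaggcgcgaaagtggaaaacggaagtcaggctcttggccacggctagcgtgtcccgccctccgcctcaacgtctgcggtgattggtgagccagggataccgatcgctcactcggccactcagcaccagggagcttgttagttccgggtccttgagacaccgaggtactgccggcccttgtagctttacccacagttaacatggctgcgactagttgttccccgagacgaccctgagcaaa
Mrpl21 promoter, chr19:3282792-3283091, plus strand: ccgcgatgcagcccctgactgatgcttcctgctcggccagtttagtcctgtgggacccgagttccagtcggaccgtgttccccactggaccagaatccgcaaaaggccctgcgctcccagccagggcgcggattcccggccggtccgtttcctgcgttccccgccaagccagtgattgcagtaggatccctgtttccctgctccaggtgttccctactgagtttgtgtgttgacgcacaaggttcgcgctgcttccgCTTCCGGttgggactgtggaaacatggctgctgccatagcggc
Mrps18c promoter, chr5:100798509-100798808, plus strand: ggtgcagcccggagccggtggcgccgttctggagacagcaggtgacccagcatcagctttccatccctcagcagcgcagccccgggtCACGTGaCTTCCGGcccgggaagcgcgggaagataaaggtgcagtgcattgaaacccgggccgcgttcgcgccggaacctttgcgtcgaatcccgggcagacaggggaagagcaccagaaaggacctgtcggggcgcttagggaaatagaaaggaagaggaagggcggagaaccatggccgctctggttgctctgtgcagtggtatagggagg

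The motifs were the NRF1 core GCGCATGC, the ETS core CCGGAAG (bound by GABP and other ETS factors), the YY1 core AAGATGGCG, the E-box CACGTG (bound by MYC-MAX and other factors) and the TATA box TATAAA. The E-box is its own reverse complement, and the NRF1 core overlaps its own reverse complement where the longer palindrome occurs. The promoter table matched 69 of the 78 members. The ETS core was found in 26 of the 69 (37.7%), against 19.7% of 10329 tested protein-coding genes and 9.9% of all 27025 genes in the table. The YY1 core was found in 8 members (11.6%), against 3.4% and 1.6%, and the NRF1 core also in 8 (11.6%), against 5.8% and 3.0%. The E-box was found in 5 members (7.2%), against 11.7% and 8.1%, and the TATA box in 5 (7.2%), against 8.8% and 15.7%. Of the 10 members with a promoter that were called higher in mutant HSC, 4 held the E-box (Mrpl2, Mrpl20, Mrpl37 and Mrps18c). The ETS core was held by 4 (Mrpl18, Mrpl21, Mrpl33 and Mrps18c), a share (40.0%) near the 37.7% of all members. The YY1 core was held by 2 of the 10 (Mrpl37 and Mrpl42), the NRF1 core by 1 (Mrpl33) and the TATA box by 1 (Mrpl16). No motif share was tested. In the lines above, Mrpl37 carries an E-box and a YY1 core, Mrps18c an E-box beside an ETS core, and Mrpl18 and Mrpl21 an ETS core each. A match describes the letters in this window and shows no binding.

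The members lie on 17 chromosomes. For 33 of the 78 (42.3%) another protein-coding gene starts on the opposite strand within 1000 bases, against 2124 of 13230 tested protein-coding genes (16.1%). Mrps18c and Helq start 29 bases apart, and Mrpl37 and Cyb5rl 120 bases apart. Exons of 21 members overlap exons of another tested gene, 18 of them on the opposite strand. Whether counting used strand was not stated, so reads from such overlaps may be shared between the genes.

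All 78 members were expressed in every library, with at least 102 counts, and all 78 passed the filter on low counts. Per length, as the authors' TPM (transcripts per 1e6) averaged over all 16 libraries, levels ranged from 4.56 TPM for Mrps30 to 415 TPM for Mrpl33, a 90.9-fold span around a median of 90.5 TPM. Mrpl33, a large-subunit protein with a bacterial relative, was followed by Mrpl42 with 349.6 TPM and Mrps14 with 348 TPM. The lowest after Mrps30 were Mrpl3 with 15.3 TPM and Mrps24 with 22.8 TPM. Most members lay closer together: 45 of the 78 had between 50 and 200 TPM, and the medians were 93.2 TPM for the large subunit and 85.6 TPM for the small subunit. In the plot of levels the subunits are mixed along the range.

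**Figure D1:**
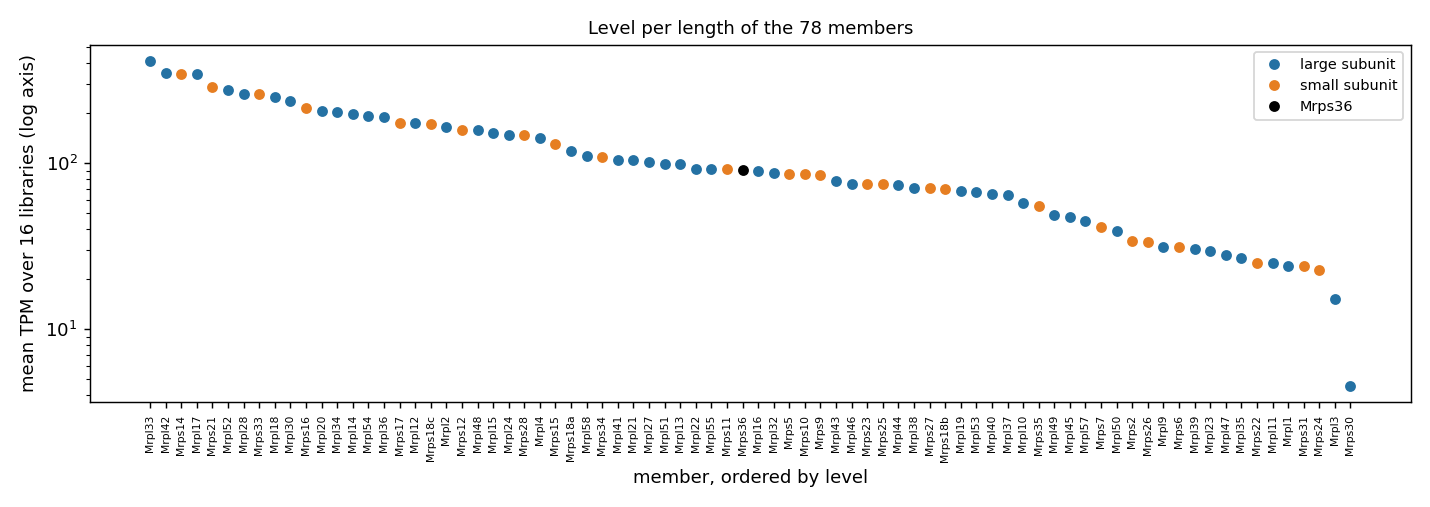
Mean TPM over the 16 libraries (log axis) for each of the 78 members, ordered by level and coloured by subunit. Mrpl33 is highest at 415 TPM, Mrps30 is lowest at 4.56 TPM, and the colours of the subunits are mixed between them.

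Summed over the 78 members, the level was lowest in control HSC and highest in mutant MPP3. The sums in control HSC were 5147, 4741, 5008 and 4697 CPM in batches 1 to 4, with a mean of 4898 ± 215.5 CPM. In mutant HSC they were 6021, 5877, 5830 and 5996 CPM, with a mean of 5931 ± 91.9 CPM. Every mutant HSC library lay above every control HSC library, and the ratio of the means was 1.21. Control MPP3 had 5666, 5670, 5542 and 5331 CPM, with a mean of 5552 ± 159 CPM, above all control HSC libraries and below all mutant HSC libraries. Mutant MPP3 had 6963, 6259, 5780 and 6667 CPM, with a mean of 6417 ± 514 CPM, and the library of batch 3 lay below the range of mutant HSC. Within batches, the log2 ratio of mutant to control was 0.23, 0.31, 0.22 and 0.35 in HSC and 0.30, 0.14, 0.06 and 0.32 in MPP3. No test was made of these sums.

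**Figure D2:**
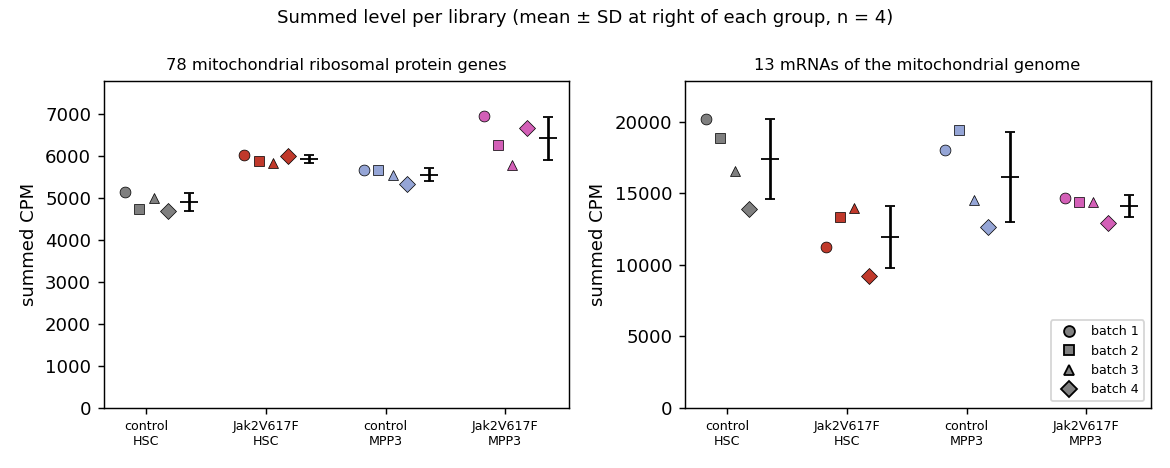
Summed CPM per library of the 78 members (left) and of the 13 mRNAs of the mitochondrial genome (right), with batches as symbols and the mean ± SD at the right of each group. The 4 mutant HSC libraries lie above the 4 control HSC libraries on the left (5830 to 6021 against 4697 to 5147 CPM), while on the right their mean is lower (11940 against 17390 CPM) and the groups overlap.

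In mutant HSC 11 mitochondrial ribosomal protein genes rose, none fell by the test, and most of the rest had values above control HSC. In an edgeR quasi-likelihood fit, with p adjusted over 14179 genes by Benjamini-Hochberg (a call is an adjusted p under 0.05), 11 of the 78 were called higher and 0 lower, where 4.56% of all tested genes were called higher and 2.74% lower. At an unadjusted p under 0.05, 36 were higher and 0 lower, where 11.1% of all genes were higher and 10.6% lower. The fold change was positive for 74 of the 78, with a median log2 fold change of 0.24 against -0.06 over all tested genes. In 26 members all mutant libraries lay above all control libraries, where 7.26% of all genes did so. The rises were small, since the 11 called members ranged from 1.3-fold to 1.58-fold. In the same libraries 5 of 10 HSC markers were called lower and 2 of 6 megakaryocyte markers higher (Pf4 and Itga2b). Of DNA replication genes 20 of 20 were called higher, and of 6 B cell markers tested 1 was called lower. The sums of B cell markers and of T or NK cell markers were lower in mutant HSC without overlap. The part of these changes in the members' values was not tested.

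Of the 11 called members, 10 belong to the large subunit and 1, Mrps18c, to the small subunit, and 9 have a bacterial relative. The medians of the subunits were close, at 0.24 for the 51 large-subunit genes and 0.24 for the 26 small-subunit genes, and 24 and 12 of them had an unadjusted p under 0.05 in the direction of a rise. A difference between subunits was not tested. The SE had a median of 0.12 over members, against 0.24 over all genes, so members were measured more precisely than most genes.

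Mrpl37 (chromosome 4, 107055874 to 107066868) is specific to mitochondria and had the largest rise. It stood at 41.5, 46.8, 63.8 and 38.3 CPM in control HSC of batches 1 to 4 and at 69.6, 76.0, 69.5 and 86.5 CPM in mutant HSC. The groups did not overlap, and the control of batch 3 came nearest to the mutants. The log2 fold change was 0.66 ± 0.15 (edgeR adjusted p = 0.0135).

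Mrpl18 (chromosome 17, 12911349 to 12916345), a relative of the bacterial protein that binds 5S ribosomal RNA, had the smallest adjusted p. Its levels were 154, 142, 145.5 and 137 CPM in control HSC against 244, 222, 188 and 250.5 CPM in mutant HSC. All mutant libraries were higher, with batch 3 the least raised, and the log2 fold change was 0.64 ± 0.10 (edgeR adjusted p = 0.000894). Of its exon bases, 10.1% overlap Tcp1, a chaperonin subunit gene on the opposite strand, which also rose (log2 0.53 ± 0.10, adjusted p = 0.00591), and the part of shared reads in the value was not tested.

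Mrpl21 (chromosome 19, 3282901 to 3292837), with a bacterial relative, stood at 47.1, 43.6, 37.9 and 38.7 CPM in control HSC against 66.1, 70.6, 53.5 and 67.4 CPM in mutant HSC. The groups did not overlap, and batch 3 was again the lowest mutant. The log2 fold change was 0.62 ± 0.11 (edgeR adjusted p = 0.00306), and 5.8% of its exon bases overlap Ighmbp2.

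Mrpl12 encodes the stalk protein that recruits translation factors and is known also to bind the mitochondrial RNA polymerase. It stood at 153, 132, 136 and 120 CPM (119.8 in batch 4) in control HSC against 179.5, 209, 196 and 183 CPM in mutant HSC. No library of the groups overlapped, and the log2 fold change was 0.50 ± 0.12 (edgeR adjusted p = 0.0146). Mrpl20, another relative of a bacterial protein, stood at 84.2, 69.7, 65.2 and 67.4 CPM in control HSC against 98.1, 116.5, 104 and 93.3 CPM in mutant HSC. The control of batch 1 was the highest control and still lay below the mutants, and the log2 fold change was 0.52 ± 0.13 (edgeR adjusted p = 0.0203).

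Mrpl16, Mrpl2 and Mrpl19 are relatives of bacterial large-subunit proteins, and that of Mrpl2 lies close to the peptidyl transferase centre. Mrpl16 had 52.6, 45.2, 49.2 and 49.7 CPM in control HSC against 68.4, 83.3, 56.8 and 68.1 CPM in mutant HSC (log2 0.49 ± 0.14, edgeR adjusted p = 0.0417), and the groups did not overlap. Mrpl2 had 109.6, 99.8, 89.0 and 88.3 CPM in control HSC against 131, 122, 109.5 and 150.0 CPM in mutant HSC (log2 0.41 ± 0.11, edgeR adjusted p = 0.0341). It was the only one of the 11 whose groups overlapped, by the control of batch 1 and the mutant of batch 3. Mrpl19 had 75.4, 72.0, 78.5 and 80.0 CPM in control HSC against 115, 90.7, 93.7 and 99.0 CPM in mutant HSC (log2 0.38 ± 0.10, edgeR adjusted p = 0.0250). Its groups did not overlap, but 36% of its exon bases overlap Gcfc2 on the opposite strand.

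The 2 members with the highest TPM were also called. Mrpl33 had 85.6, 79.8, 73.2 and 81.5 CPM in control HSC against 113, 112, 103 and 109 CPM in mutant HSC (log2 0.45 ± 0.11, edgeR adjusted p = 0.0172). Mrpl42, specific to mitochondria, had 130, 112, 125 and 108 CPM (129.8 in batch 1) in control HSC against 161, 153.5, 143 and 161 CPM in mutant HSC (log2 0.38 ± 0.09, edgeR adjusted p = 0.0205). Neither pair of groups overlapped. Mrps18c, 1 of 3 mammalian paralogs of a single bacterial small-subunit protein, had 47.4, 49.5, 42.2 and 39.6 CPM in control HSC against 65.7, 65.5, 58.2 and 59.0 CPM in mutant HSC (log2 0.47 ± 0.14, edgeR adjusted p = 0.0446), with no overlap.

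**Figure D3:**
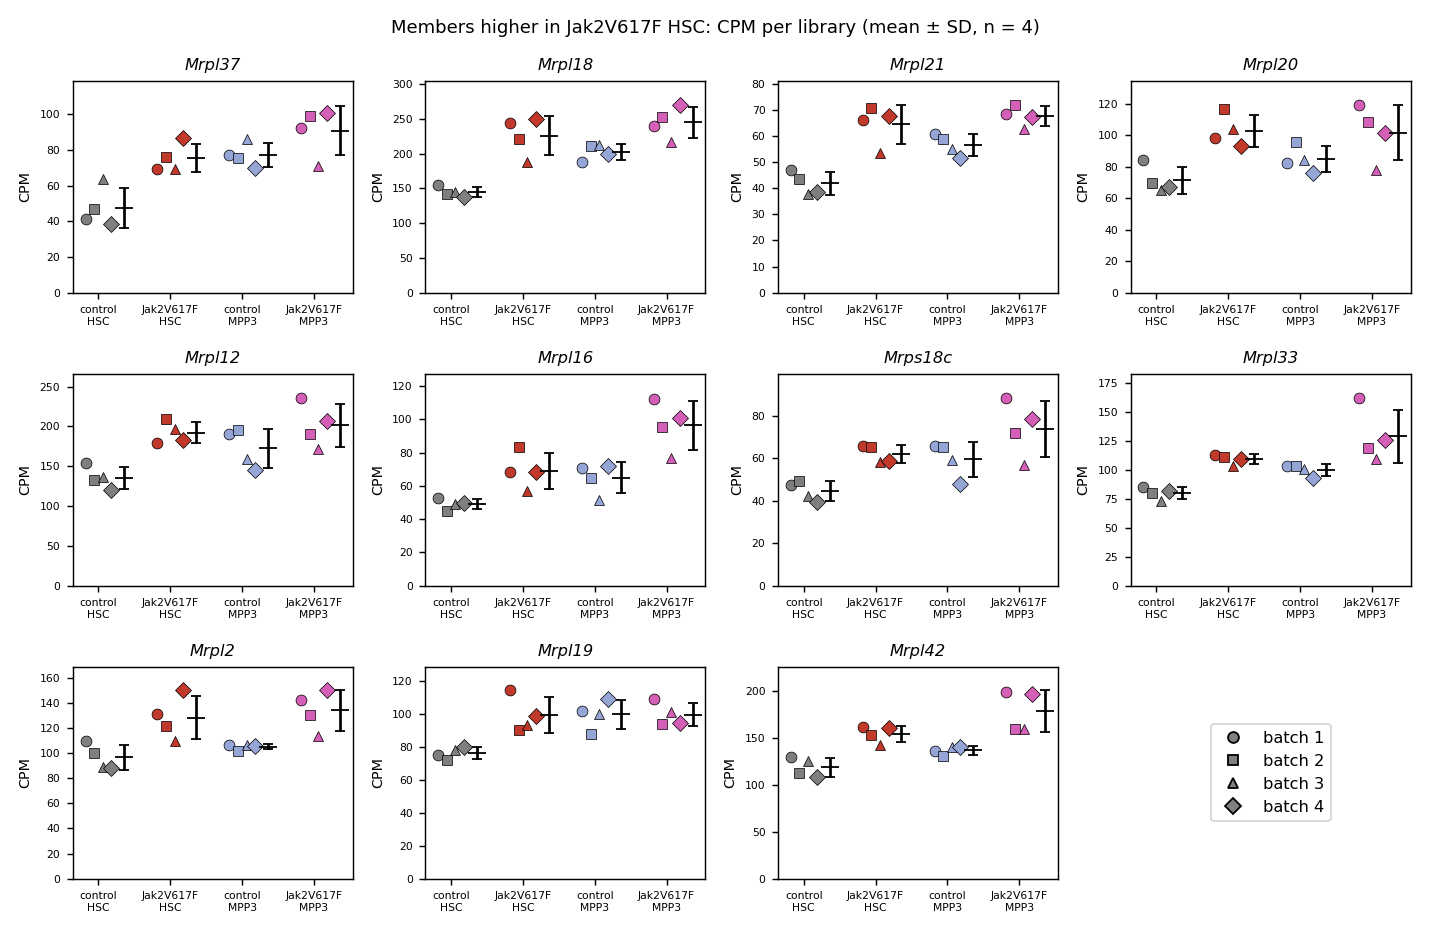
CPM per library of the 11 members called higher in Jak2V617F HSC, in all 4 groups, with batches as symbols and the mean ± SD beside them (axes start at 0). In 10 of the 11 panels the mutant HSC libraries all lie above the control HSC libraries, Mrpl2 being the exception, and Mrpl16 continues upwards to mutant MPP3 (96.4 CPM on average).

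Members known for a further role mostly had positive values that did not pass. The other 2 paralogs had log2 values of 0.36 ± 0.12 for Mrps18b (adjusted p = 0.0939) and 0.27 ± 0.12 for Mrps18a (adjusted p = 0.182). Mrpl58, a peptidyl-tRNA hydrolase that rescues stalled ribosomes, had 40.3 ± 1.32 and 51.6 ± 1.57 CPM (log2 0.36 ± 0.12, adjusted p = 0.0699). Mrps22, a small-subunit protein tied to inherited mitochondrial disease, had 14.2 ± 3.81 and 21.3 ± 5.42 CPM, and its log2 value of 0.58 ± 0.22 exceeded most of those called but was less precise (adjusted p = 0.128). Mrpl11 at the stalk base (0.32 ± 0.11), Mrps5 (0.41 ± 0.17), Mrps16 (0.28 ± 0.12), Mrpl41 (0.23 ± 0.11), Mrps12 of the decoding centre (0.18 ± 0.12), Mrpl44 (0.12 ± 0.17) and Mrps36 (0.22 ± 0.15) were also positive on the log2 scale without a call. Mrps30 was level, at 4.09 ± 1.55 and 4.09 ± 0.758 CPM.

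The 4 members with negative values were Mrpl23 (-0.06 ± 0.21), Mrpl10 (-0.04 ± 0.11), Mrpl52 (-0.03 ± 0.13) and Mrps2 (-0.01 ± 0.16) on the log2 scale, each within 1 SE of 0. Mrpl23 is uncertain. A processed copy on chromosome 2, Mrpl23-ps1, matches it over 540 aligned bases with 100% identity, and its row held 85.0 ± 4.39 CPM in control HSC against 12.3 ± 2.12 CPM for Mrpl23. The 2 rows together had 97.2 ± 5.39 CPM in control HSC against 95.03 ± 7.30 CPM in mutant HSC, so no rise was seen in the sum either. In MPP3 the sum was 91.6 ± 6.0 CPM in control and 100.6 ± 4.02 CPM in mutant libraries, with overlap, and Mrpl23-ps1 had a log2 value of 0.16 ± 0.09 (edgeR adjusted p = 0.460).

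**Figure D4:**
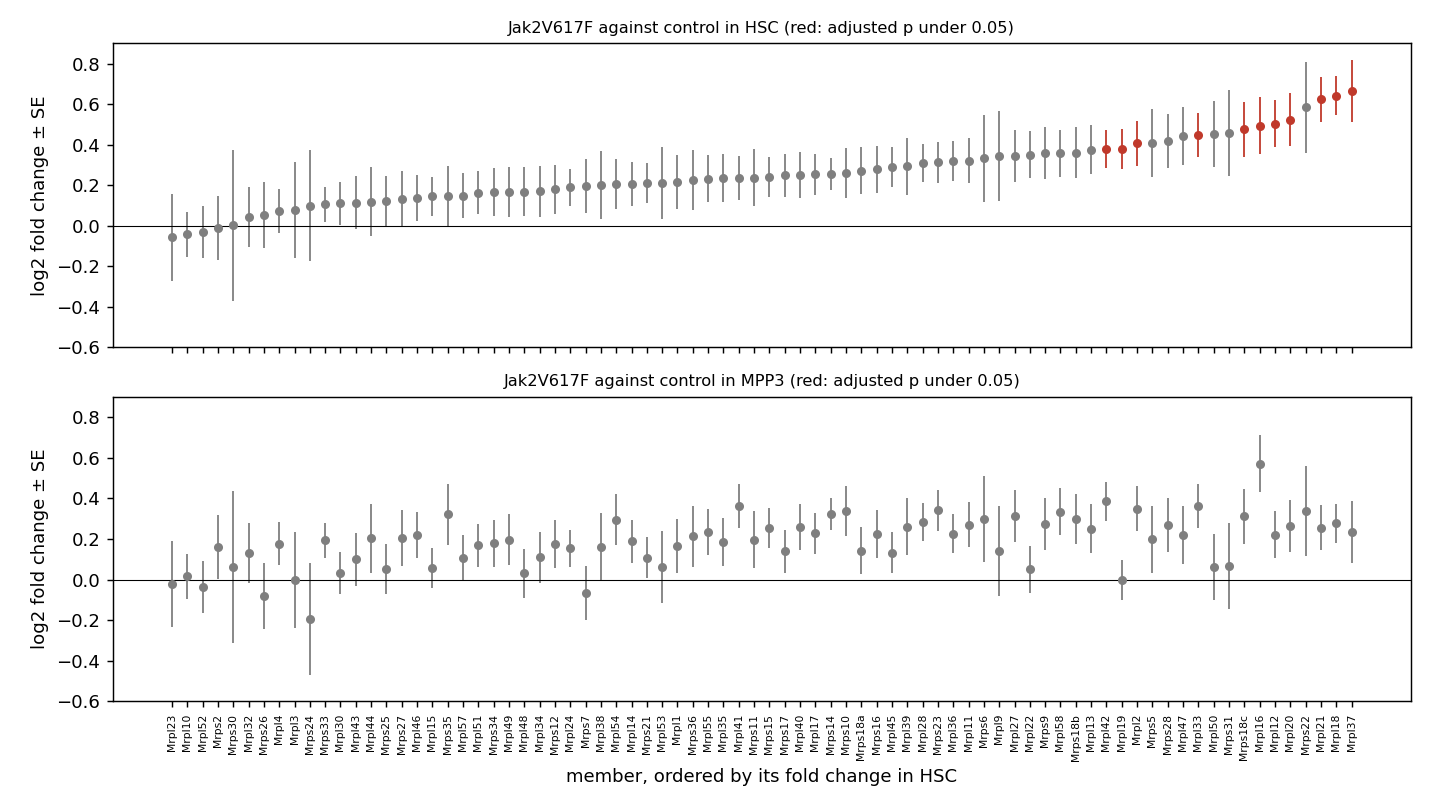
Log2 fold change ± SE of each of the 78 members in Jak2V617F against control, for HSC (top) and MPP3 (bottom), in the order of the HSC values; red marks an adjusted p under 0.05. In HSC 74 of 78 values lie above 0 and 11 are red, and in MPP3 71 of 78 lie above 0 and 0 are red.

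The size of the HSC count rested on the libraries used. DESeq2 called 23 members higher (8.58% of the genes it tested), limma-voom 11 (4.63%) and edgeR with the batch as a block 16 (5.77%), with 0 lower in each, and all 11 members stayed called in the block fit and by DESeq2. Of the 11, limma-voom called 10, leaving out Mrpl16, and called Mrpl28 besides. Leaving out control HSC replicate 2, 3 or 4 gave 5, 7 and 5 members, and leaving out mutant HSC replicate 1 or 4 gave 6 and 7. Without mutant HSC replicate 3 the count was 19. That library stood apart in cytosolic ribosomal proteins (125400 CPM against 83750 to 95310 CPM in the other mutant HSC libraries), neutrophil markers (44.9 against 2.01 to 11.7 CPM) and DNA replication genes (5568 against 6907 to 7720 CPM), whose part in the count was not tested. Without mutant MPP3 replicate 1 or 3, which are in neither group compared, it was 17 in each case. Such libraries enter through the shared spread, the scaling, the filter on low counts and the adjustment of p. Mutant HSC replicates 1 and 4 had the highest correlation of any pair within a group (Pearson r of 0.971 across genes), and without both only Mrpl18 remained called (log2 0.50, edgeR adjusted p = 0.0324), while the median over all members stayed at 0.24. Mrpl18, Mrpl21 and Mrpl37 kept the call when any single library was left out. The other 8 lost it without at least 1 library among control HSC 2, 3 and 4, mutant HSC 1, 2 and 4 and control MPP3 3, with adjusted p up to 0.121 (Mrps18c). The share of all genes called is not given here for the fits that left out libraries. A change in the members' count therefore cannot be told apart from a change over all genes.

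In mutant MPP3 most members had values above control MPP3, with no call. Of the 78 members, 0 were called higher and 0 lower by edgeR, where 0.0141% and 0.0494% of all genes were called. At an unadjusted p under 0.05, 23 were higher and 0 lower, where 6.31% and 7.52% of all genes were. The fold change was positive for 71 of the 78, with a median of 0.20 against -0.02 over all genes on the log2 scale, and in 17 members the groups did not overlap (3.65% of all genes were so raised). DESeq2 called Mrpl16, Mrpl42 and Mrps14 higher (1.2% of the genes it tested), limma-voom called 0 (0.0% of all genes), and the block fit called Mrpl16 (0.176% of all genes). Erythroid markers moved in the same comparison, with sums of 414.5 to 823 CPM in control MPP3 against 58.2 to 287.5 CPM in mutant MPP3 and no overlap. B cell markers summed to 113.5 to 215 and 70.8 to 117 CPM, with 4 of 6 tested lower at an unadjusted p under 0.05 and a median of -1.98 on the log2 scale. By edgeR 0 of either list were called, while 1 of 10 HSC markers was called lower. T or NK cell markers summed to 5.945 to 22.48 CPM in control MPP3 against 1.585 to 4.19 CPM in mutant MPP3, with no overlap. The part of these markers in the members' values was not tested.

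Mrpl42 had the smallest p in MPP3. Its levels were 137, 130, 140 and 141 CPM (130.4 and 140.1 in batches 2 and 3) in control MPP3 against 199, 160, 160 and 197 CPM (159.9 and 160.0 in batches 2 and 3) in mutant MPP3. The groups did not overlap (log2 0.39 ± 0.09, edgeR adjusted p = 0.114). Mrps14, a relative of a bacterial small-subunit protein, had 169, 157, 157 and 168 CPM in control MPP3 against 232, 186, 191.5 and 204 CPM in mutant MPP3 (log2 0.32 ± 0.08, edgeR adjusted p = 0.115). Mrpl16 had 70.8, 64.6, 51.7 and 72.3 CPM in control MPP3 against 112, 95.6, 76.8 and 101 CPM in mutant MPP3 (log2 0.57 ± 0.14, edgeR adjusted p = 0.115). In each the mutant libraries lay above all controls, and the mutant of batch 1 was the highest.

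Role members had values on the same side. Mrpl58 had 47.1 ± 6.79 CPM in control MPP3 against 59.4 ± 6.15 CPM in mutant MPP3 (log2 0.34 ± 0.12, edgeR adjusted p = 0.199). Mrpl41 had 50.3 ± 4.07 and 64.6 ± 8.33 CPM (log2 0.36 ± 0.11, adjusted p = 0.155) and Mrps18b 52.6 ± 1.92 and 64.7 ± 4.23 CPM (log2 0.30 ± 0.12, adjusted p = 0.291), and in these 3 the groups did not overlap. The stalk protein Mrpl12 had 173 ± 24.5 and 201 ± 27.2 CPM (log2 0.22 ± 0.12, adjusted p = 0.427), with overlap. The 7 members with negative values were Mrps24 (-0.20 ± 0.28 on the log2 scale), Mrps26 (-0.08 ± 0.16), Mrps7 (-0.07 ± 0.13), Mrpl52 (-0.04 ± 0.13), Mrpl23, Mrpl3 and Mrpl19, all within 1 SE of 0. For Mrpl23 the sum with its copy had the higher mean in the mutant.

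The mutant MPP3 library of batch 3 stood nearest to the controls. Within that batch 48 of the 78 members were higher in the mutant, against 71, 55 and 71 in batches 1, 2 and 4. Without that library edgeR called 4 members higher, where it called 0.744% of all genes higher: Mrpl16 (log2 0.69, adjusted p = 0.0264), Mrpl33 (0.45, 0.0489), Mrpl42 (0.45, 0.0410) and Mrps14 (0.37, 0.0480). The same library had neutrophil markers summing to 204 CPM, against 1.38 to 12.7 CPM in the other mutant MPP3 libraries, and erythroid markers summing to 287.5 CPM against 58.2 to 178 CPM. The control MPP3 libraries had neutrophil sums of 113, 277, 5.17 and 116 CPM, so that library lay within their range for neutrophil markers and below it for erythroid markers. The part of these markers in the result was not tested.

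No member's mutant effect passed as different between the cell types. For MPP3 minus HSC, 0 of the 78 were called higher or lower by edgeR, where 0.0141% and 0.0282% of all genes were. At an unadjusted p under 0.05, 0 were higher and 3 lower, where 3.19% and 3.73% of all genes were. The 3 were Mrpl19 (log2 difference -0.38 ± 0.14, adjusted p = 0.519), Mrpl18 (-0.37 ± 0.14, adjusted p = 0.532) and Mrpl21 (-0.37 ± 0.16, adjusted p = 0.646). Mrpl19 stood at 102, 87.8, 100.5 and 109.5 CPM in control MPP3 against 109, 94.3, 101 and 94.5 CPM in mutant MPP3, so that its groups overlapped there. Over all members the median difference was -0.05, and 55 of the 78 had the smaller effect in MPP3.

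Between the cell types of control mice, 7 members were higher in MPP3 than in HSC and none lower by the test. By edgeR, 7 of the 78 were called higher and 0 lower, where 6.67% and 6.91% of all genes were called, so the share of members called higher was near that of all genes. At an unadjusted p under 0.05 there were 23 higher and 0 lower, where 13.2% of all genes were higher and 13.2% lower. The fold change was positive for 64 of the 78 with a median of 0.14 on the log2 scale, and 14 members had groups that did not overlap (9.26% of all genes). With the batch as a block 14 were called higher (7.98% of all genes), including all 7. This comparison shares its control HSC libraries with the mutant comparison in HSC, so the values are given side by side and not as separate evidence. Markers of other cell types also differed here. Of 6 B cell markers tested 4 were called higher, of 8 erythroid markers 2 were called higher, and 6 of 6 megakaryocyte markers were called lower. The part of these markers in the members' values was not tested.

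Of those 7, Mrpl37 had control MPP3 levels of 77.3, 75.5, 86.4 and 69.9 CPM, all above its control HSC levels (log2 0.70 ± 0.15, edgeR adjusted p = 0.00512), beside its 0.66 in mutant HSC. Mrpl18 had 188, 210.5, 212 and 199 CPM (log2 0.48 ± 0.10, edgeR adjusted p = 0.00270), beside 0.64. Mrpl21 had 60.7, 58.9, 54.9 and 51.7 CPM (log2 0.43 ± 0.11, edgeR adjusted p = 0.0148), beside 0.62. Mrpl19 had 102, 87.8, 100.5 and 109.5 CPM (log2 0.39 ± 0.10, edgeR adjusted p = 0.0141), beside 0.38. Mrps28, of the small subunit and by its number counted as specific to mitochondria, had 51.7 ± 4.53 CPM in control HSC against 70.2 ± 9.08 CPM in control MPP3 (log2 0.44 ± 0.13, edgeR adjusted p = 0.0350), beside 0.42 in mutant HSC that was not called (adjusted p = 0.0650). Mrpl36 (log2 0.31 ± 0.10, adjusted p = 0.0403) and Mrpl15 (log2 0.31 ± 0.10, adjusted p = 0.0473) completed the 7, with 0.32 and 0.14 in mutant HSC. In all 7 the control MPP3 libraries lay above all control HSC libraries.

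Mrpl18, Mrpl19 and Mrpl37 kept the control cell-type call when any library was left out. Mrpl21 lost it without control MPP3 replicate 1 (adjusted p = 0.0507), and Mrpl15, Mrpl36 and Mrps28 lost it in 11, 10 and 6 of the 16 fits that left out 1 library, with adjusted p up to 0.141. The count fell to 4, 4, 3 and 4 without control HSC 2 or 4 and control MPP3 1 or 2, and rose to 14, 13, 11 and 11 without mutant HSC 3 and mutant MPP3 1, 2 or 4. The share of all genes called in these fits is not given here, so such changes cannot be told apart from changes over all genes.

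In Jak2V617F mice, 1 member was called higher in MPP3 than in HSC and 0 lower, where 3.69% and 4.68% of all genes were called, and at an unadjusted p under 0.05 11 were higher and 0 lower, where 9.48% of all genes were higher and 10.9% lower. The member was Mrpl16, with 68.4, 83.3, 56.8 and 68.1 CPM in mutant HSC and 112, 95.6, 76.8 and 101 CPM in mutant MPP3. Its groups overlapped, though within each batch MPP3 was higher (log2 0.48 ± 0.14, edgeR adjusted p = 0.0421), and the call was lost in 12 of 16 fits that left out 1 library (adjusted p up to 0.149). Mrps14 (0.21 ± 0.08, adjusted p = 0.118) and Mrpl1 (0.36 ± 0.13, adjusted p = 0.128) came next on the log2 scale. The median over members was 0.12.

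The members' medians lay near those of the nuclear subunits of the respiratory complexes and above those of the cytosolic ribosomal proteins. In mutant HSC, 22 of 81 tested nuclear complex subunits were called higher and 0 lower, with a median log2 fold change of 0.31, and 0 of 86 cytosolic ribosomal protein genes were called higher and 1 lower, with a median of -0.11. Of all tested genes 4.56% were called higher there and 2.74% lower. In mutant MPP3 the medians were 0.24 and -0.03, and between control MPP3 and HSC they were 0.14 and -0.08. Within batches the cytosolic family was uneven in HSC, with log2 ratios of summed CPM of -0.42, -0.24, 0.24 and -0.13, while that of the members was positive in every batch. The cytosolic list was taken by symbol. It also held Rps19bp1, which is not a ribosomal protein, and Rps27 and Rps12, which had 0 counts in every library. No test was made between the families.

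**Figure D5:**
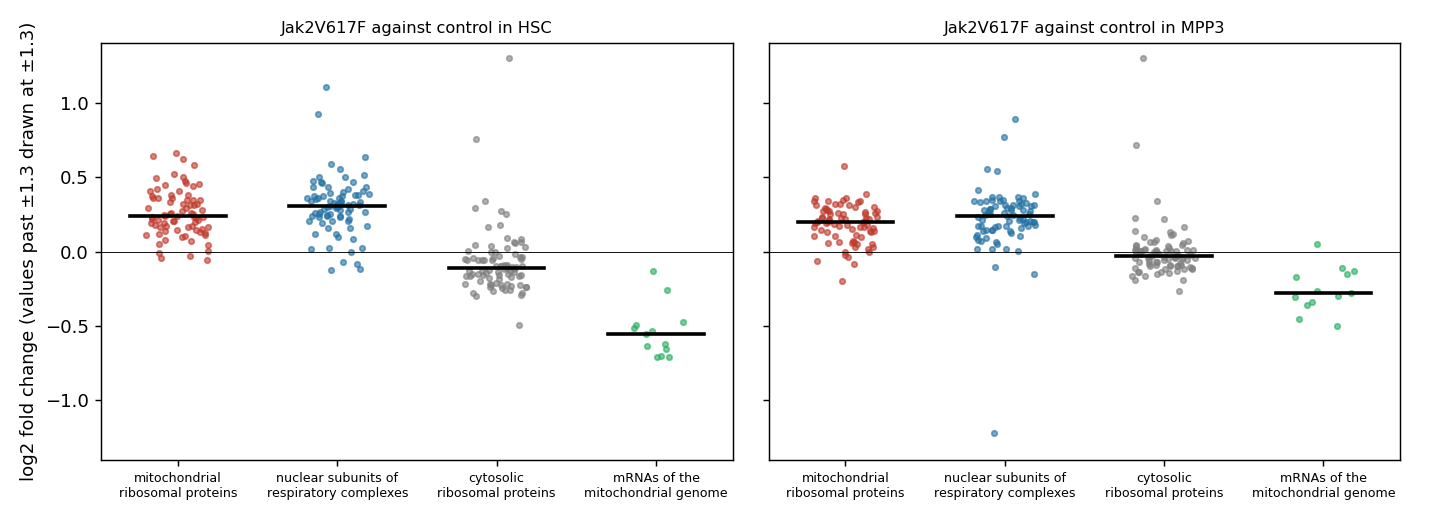
Log2 fold change of each gene in Jak2V617F against control, in HSC (left) and MPP3 (right), for the members and 3 other groups, with the median as a bar; 1 gene in each panel lies past 1.3 and is drawn at the limit. In HSC the medians are 0.24 for the members, 0.31 for nuclear complex subunits, -0.11 for cytosolic ribosomal proteins and -0.55 for mRNAs of the mitochondrial genome.

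The mRNAs that the mitochondrial ribosome translates went the other way in mutant HSC. Of the 13 mRNAs of the mitochondrial genome, 6 were called lower and 0 higher, where 2.74% and 4.56% of all tested genes were. All 13 had negative values, with a median of -0.55 on the log2 scale. The largest were mt-Nd6 (67.9 ± 12.2 and 41.5 ± 4.84 CPM, log2 -0.71 ± 0.15, edgeR adjusted p = 0.00815) and mt-Co1 (3046 ± 513 and 1868 ± 358 CPM, log2 -0.71 ± 0.16, edgeR adjusted p = 0.0118). mt-Nd5 (-0.70 ± 0.15, adjusted p = 0.00898) and mt-Nd4 (-0.64 ± 0.15, adjusted p = 0.0180), like mt-Nd6 subunits of complex I, also fell. Their sum was lower in the mutant within each HSC batch (log2 ratios of -0.84, -0.50, -0.24 and -0.60). In mutant MPP3 0 of the 13 were called and the median was -0.28.

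Genes that serve the mitochondrial ribosome differed by list. A list of 6 genes held mitoribosome subunits under other symbols and Oxa1l, which is not a subunit. Among these 6, Aurkaip1 rose in mutant HSC (93.2 ± 3.30 to 120.5 ± 11.5 CPM, log2 0.37 ± 0.09, edgeR adjusted p = 0.0197), and the median was 0.29. Of all tested genes 4.56% were called higher there. Of 24 assembly factors 0 were called, with a median of 0.03, and Fastkd2 had the smallest p (log2 0.61 ± 0.28, adjusted p = 0.217). Of 14 translation factors 2 rose: Gfm1, the elongation factor of translocation (42.1 ± 3.94 to 71.7 ± 7.73 CPM, log2 0.77 ± 0.16, edgeR adjusted p = 0.00708), and Tsfm, the exchange factor for Tufm (43.4 ± 2.66 to 68.8 ± 5.07 CPM, log2 0.67 ± 0.11, edgeR adjusted p = 0.00174). Of 11 genes of mitochondrial transcription and DNA copying 0 were called, and Polg2, a subunit of the mitochondrial DNA polymerase, had the smallest p (log2 -0.50 ± 0.23, adjusted p = 0.221). Of 25 import genes 3 rose (Timm50 0.49, Timm23 0.51 and Timm13 0.40 on the log2 scale), and all 25 were positive.

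Of 12 regulators of mitochondrial biogenesis, 0 rose and Mycn fell in mutant HSC (337 ± 87.5 to 165 ± 39.9 CPM, log2 -1.03 ± 0.26, edgeR adjusted p = 0.0206). Myc and Nrf1 are given, outside the naming rule, because motifs of their proteins were looked for. The same reason holds for Yy1, Max, Gabpa, Gabpb1 and Gabpb2, which were not called in mutant HSC and whose values are not given here. Myc had 319 ± 84.7 and 221 ± 18.5 CPM (-0.53 ± 0.20, adjusted p = 0.117) and Nrf1 106 ± 18.0 and 112 ± 9.08 CPM (0.08 ± 0.12, adjusted p = 0.775). Genes of the cell cycle also rose in mutant HSC. In mutant HSC 20 of 20 DNA replication genes and 16 of 16 mitosis genes were called higher, with medians of 0.90 and 0.87 on the log2 scale (Tyms 1.06, Tk1 1.08, Lig1 0.96, Mcm2 0.85, Cdk1 1.03, Ccnb1 1.15, Cenpa 0.84 and Top2a 0.95). In control MPP3 against HSC they were 18 of 20 and 9 of 16, where 6.67% of all genes were called higher. In mutant MPP3 their medians were 0.327 and 0.332, against 0.198 for the members. For the mutant effect in MPP3 minus that in HSC, their medians were -0.54 and -0.61, against -0.05 for the members. In that difference 17 of 20 and 12 of 16 were lower at an unadjusted edgeR p under 0.05, where 3.73% of all genes were. The replication sum rose within each HSC batch (log2 ratios of 0.92, 0.99, 0.39 and 1.02), and in mutant MPP3, where 0 of either list were called, batch 3 had the smallest ratio (0.04) as it did for the members. The part of cycling cells in the members' levels was not tested.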

How the data were processed

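RNA from sorted bone marrow cells was sequenced in 16 libraries (4 groups of 4, from 7000 to 10000 cells each). Reads were trimmed, aligned and quantified with cutadapt 4.0, HISAT2 and Salmon on GRCm38, per the submitters' processing notes. The deposited tables hold estimated counts per gene, which were rounded to whole numbers, and TPM and effective length per gene by the authors; TPM was used only for levels per length and effective length only in 1 alternative. Of 31716 rows, 1910 named single transcripts and were left out. The members, lists and tests were chosen with earlier results of these data known.

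One edgeR fit (4.0.16, R 4.3.3, limma 3.58.1) held all 16 libraries with a coefficient per group (TMM, filterByExpr, robust quasi-likelihood), with Benjamini-Hochberg adjustment over 14179 genes and a threshold of 0.05. SE is the log2 fold change over the root of F, from the spread shared by the 4 groups. DESeq2 1.42.0, limma-voom and other settings were alternatives, and scripts were tested on simulated data. The batch number in the labels pairs the libraries: deviations from group means correlated within a batch at -0.03 to 0.16 (median 0.06), with 5 of 24 pairs over 0.1. Between batches they correlated at -0.104 to 0.07 (median -0.021), with 0 of 72 pairs over 0.1. The main fit held no term for the batch, and the fit with the batch as a block was an alternative. The members named were, per comparison, up to 10 called in each direction by size of change (the 3 with the smallest p where fewer than 5 were called), the 3 highest and 3 lowest in TPM, 14 members with a known role, and those against the majority. In other lists, up to 4 called genes or the 1 with the smallest p were named. Gene positions come from GENCODE M21, and identity to pseudogenes from blastn 2.17.0.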

Additional observations from a re-analysis of the deposited data

Results flagged for a closer look

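Of 124 groups of 4 libraries looked at among the members named, 6 had 1 library far from the other 3, and chance alone gives about 1 in 20 such groups. Mrpl36 stood at 119.3 CPM in control MPP3 of batch 1, against 104.0 to 105.7 CPM in the other 3. Mrps14 stood at 156.2 CPM in control HSC of batch 1, against 143.5 to 144.3 CPM. Mrps36 stood at 37.16 CPM in mutant HSC of batch 3, against 31.94 to 32.77 CPM. Mrpl58 was low at 49.28 CPM in mutant HSC of batch 2, against 52.15 to 52.65 CPM. Mrps18b was low at 49.72 CPM in control MPP3 of batch 3, against 53.54 to 53.56 CPM. Mrps30 was low at 2.97 CPM in mutant HSC of batch 4, against 4.384 to 4.63 CPM.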

How the results depend on the processing

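The number of members called higher in mutant HSC was 11 and became 23 by DESeq2, 1 without mutant HSC 1 and 4 together, and 5 to 19 when each library was left out. In mutant MPP3 it was 0 and became 1 with the replicate block, 3 by DESeq2, and 0 to 4 when each library was left out. In control MPP3 against HSC it was 7 and became 14 with the replicate block, 13 by DESeq2, and 3 to 14 when each library was left out. In mutant MPP3 against HSC it was 1 and became 0 without a filter on low counts, with only the groups compared, and without mutant HSC 1 and 4, and 0 to 1 when each library was left out. The block gave 16 in mutant HSC, and in mutant MPP3 against HSC and in the difference of effects it left the counts at 1 and 0. In the fits run, 0 members were called lower in any comparison. For most of these fits the share of all genes called is not given. Changes in the members' counts therefore cannot be told apart from changes over all genes. Of the 19 calls on named members, 4 held in all 26 alternatives (Mrpl18 in mutant HSC, and Mrpl18, Mrpl19 and Mrpl37 in control MPP3), and 0 changed sign. Signs changed in 10 uncalled results. When each library was left out, log2 values in control MPP3 against HSC ran from -0.20 to 0.13 (Mrpl3), -0.11 to 0.14 (Mrpl44), -0.067 to 0.13 (Mrps12), -0.13 to 0.14 (Mrps24) and -0.10 to 0.31 (Mrps30). In mutant HSC they ran from -0.11 to 0.23 (Mrpl3), -0.012 to 0.25 (Mrpl44) and -0.14 to 0.25 (Mrps30), and in mutant MPP3 from -0.15 to 0.19 (Mrpl3) and -0.29 to 0.24 (Mrps30). Mrpl3 was at 0.01 and Mrps24 at 0.014 in control MPP3 against HSC without the filter, and Mrps24 at 0.06 with effective-length offsets. Mrpl44 was at -0.14 in mutant HSC without libraries 1 and 4. In mutant MPP3, Mrpl3 was at 0.017 with the block, 0.047 by limma-voom and 0.023 with effective-length offsets, and Mrps30 at -0.002 by limma-voom. The cause of these changes was not tested.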
